A study of Mus musculus with 4 samples.

Results

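The 38 genes described here encode the machinery that copies DNA in S phase, together with regulators that start it. They were taken by symbol from a list of replication and S phase genes, and all 38 were found among the 16338 rows of each file. RNA sequencing measured them in mouse T cells carrying 1 of 2 T cell receptors, TRP1high or TRP1low, after 48 h of stimulation by B cells loaded with the K8 or the M9 peptide. The T cells were recovered by cell sorting and their total RNA was sequenced. Each receptor was paired with each peptide, which gives 4 groups that shared the B cells, the time and the sort. The receptor names refer to tyrosinase-related protein 1, a melanosome protein that T cells can target in melanoma, and the series asks how altered peptide binding to MHC class I changes CD8 T cell responses. Each group was 1 library, so the spread between cultures is unknown and no comparison of a single pair of libraries carries a p-value. The labels do not say how many animals a library came from. Values are log2 normalized counts as deposited, with 1 added before the logarithm, and a difference of 1 on this scale is 2-fold.

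A T cell that recognises its peptide leaves rest, enlarges and then divides repeatedly within a few days. Before each S phase, the origin recognition complex with CDC6 and CDT1 loads rings of the MCM2 to MCM7 helicase onto DNA. Kinases of S phase, MCM10, CDC45 and the GINS complex then switch the helicase on, polymerases copy both strands behind it, and E2F transcription factors with cyclin E drive many of these genes.

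E2F factors recognise a short sequence near the start of many such genes. It was searched as TTTCCCGC, TTTCGCGC, TTTGCCGC or TTTGGCGC on both strands, overlaps allowed, in RefSeq windows (GRCm38.p6) from 250 bases before to 50 bases after each gene start. Windows were held for 32 of the 38 members (not Ccne2, Gins1, Gins2, Gins4, Mcm4 and Pole). Of these 32 genes, 15 (46.9%) had a match, against 2.6% of the 27025 genes with a window and 5.22% of the 7666 that also averaged 100 or more normalized counts. The pentamer CCAAT, on either strand, was in the windows of 20 (62.5%), against 41.1% of all genes. A match is a run of letters and not a measured binding site. The stretches below come from genes of licensing, the MCM helicase, the polymerases and chromatin replication, whose values are described further on, read 5′ to 3′ on the gene's strand, with E2F matches in capitals. That of Orc1 and that of Hells are limited to 30 bases because a GENCODE exon of the same gene overlaps them.
Mcm6 (chr1:128359706-128359855, minus strand): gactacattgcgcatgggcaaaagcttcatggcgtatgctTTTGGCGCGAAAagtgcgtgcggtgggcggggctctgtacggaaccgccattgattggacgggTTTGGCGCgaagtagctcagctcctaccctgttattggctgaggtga
Mcm5 (chr8:75109309-75109408, plus strand): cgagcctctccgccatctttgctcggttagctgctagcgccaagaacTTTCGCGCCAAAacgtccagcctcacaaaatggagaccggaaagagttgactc
Cdc6 (chr11:98908001-98908150, plus strand): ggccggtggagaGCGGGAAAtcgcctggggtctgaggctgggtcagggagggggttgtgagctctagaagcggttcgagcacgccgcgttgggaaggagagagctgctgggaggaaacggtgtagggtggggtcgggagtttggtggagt
Pola1 (chrX:93632156-93632305, minus strand): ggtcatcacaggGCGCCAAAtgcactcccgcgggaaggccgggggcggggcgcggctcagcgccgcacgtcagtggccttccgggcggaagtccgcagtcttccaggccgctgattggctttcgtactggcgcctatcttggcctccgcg
Orc1 (chr4:108579414-108579443, plus strand): gtttcggttagtgGCGCGAAAagttttctc
Hells (chr19:38930915-38930944, plus strand): gagaccaccgggtTTTCCCGCgaaagagaa
Mcm6 held 3 matches, 2 of which overlap on opposite strands, and Mcm5 held an overlapping pair of the same kind.

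The libraries held 29.6 M (TRP1low with K8) to 41.5 M (TRP1high with M9) estimated reads. All 10 CD8 T cell markers were detected in every library, with a summed level of 3047 to 3697 CPM (normalized counts scaled to the same total in each library), including Cd8a and Cd3e. The 16 B cell markers summed to 105 and 76.6 CPM in the K8 libraries of TRP1high and TRP1low and to 36.7 and 25.6 in the M9 libraries, where Pax5 and Cr2 (TRP1high) and Cr2 (TRP1low) were at 0. The 5 erythroid markers summed to 15.0 CPM in TRP1low with K8 and to 0.0786 to 0.230 in the other libraries, where Hba-a2 and Hbb-bt were at 0. The 6 measured myeloid markers of 10 listed summed to 45.1 to 78.9 CPM, mostly Cst3, and the 3 CD4 T cell markers to 0.340 to 1.07. The 4 measured gamma delta T or NK cell markers of 5 listed summed to 52.1 (K8) and 15.4 (M9) in TRP1high. In TRP1low, they summed to 29.9 (K8) and 18.9 (M9). The part of such cells in the results below was not tested.

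All 38 members were abundant in all 4 libraries. Together they made up 9152 CPM with K8 and 7687 with M9 in TRP1high, and 8739 with K8 and 8149 with M9 in TRP1low. The summed level was thus higher in both K8 libraries than in both M9 libraries. In TRP1low, the member Hells alone fell from 16343 normalized counts with K8 to 8203 with M9. There, 20 members were lower and 18 higher with M9, or 25 and 13 with equal totals of the libraries. The summed B cell markers and the summed gamma delta T or NK cell markers were also higher in both K8 libraries. The summed myeloid markers were higher in both M9 libraries. The part of such cells in the difference was not tested. In these bulk samples, fewer dividing cells, less of these transcripts per cell and a differing share of other cells cannot be told apart. Per kilobase of the longest protein-coding transcript, Pcna, the sliding clamp that tethers polymerases to DNA, had the highest level, at 21491 normalized counts per kb over the 4 libraries. The next were Dut (8815), which removes dUTP from the nucleotide pool, and Mcm3 (8529). Gins3, a subunit of the helicase activator GINS, was the lowest at 255 per kb, below the E2F repressor E2f8 at 335. Most members kept close to 1 level across libraries: the range over the 4 libraries was narrowest for the flap endonuclease Fen1 (0.07 on the log2 scale) and widest for the chromatin remodeller Hells (1.60).

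**Figure D1:**
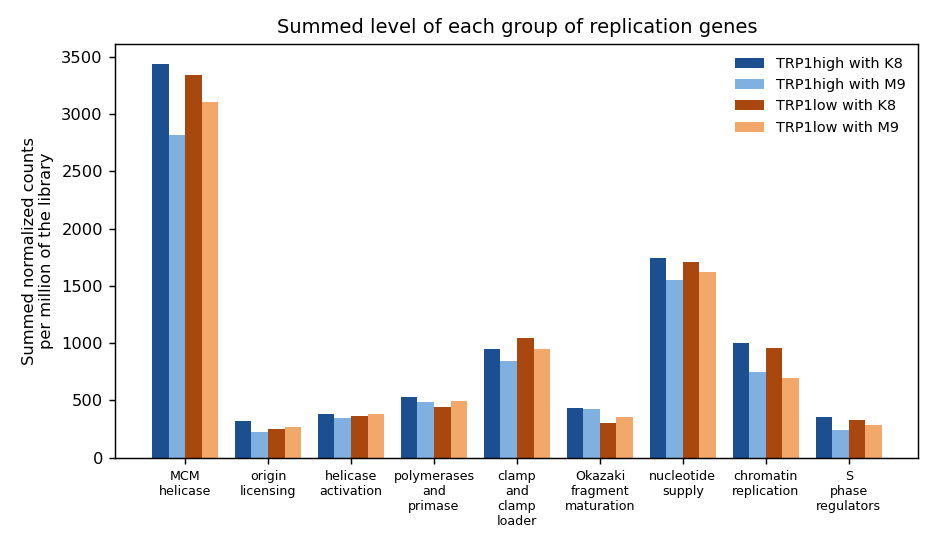
Summed normalized counts scaled to CPM (vertical axis, from 0) for the 9 role groups of replication genes, with 1 bar per library and no replicates. The MCM helicase group stands highest, at 3439 with K8 and 2818 with M9 in TRP1high and 3342 with K8 and 3105 with M9 in TRP1low.

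The comparison of M9 with K8 asks whether the peptide changed the replication programme. In TRP1high, the M9 library was lower for 34 of 38 members, by small amounts: the median difference was -0.23, against -0.02 over the 16102 tested genes (those averaging 1 normalized count or more), of which 53.3% were lower. At least 1.5-fold differences were seen for 3 members, all lower with M9 (Orc1, Ccne1 and Ccne2), where 9.54% of all tested genes were lower and 10.1% higher by that much. With libraries brought to equal medians, 29 members rather than 34 were lower. In TRP1low, 20 members were lower and 18 higher with M9, with a median of -0.03 against 0.02 over all genes, of which 47.0% were lower, and with equal totals of the libraries the split was 25 lower and 13 higher. There, 3 members were at least 1.5-fold higher (Orc1, Lig1 and Pold1) and Hells was lower, where 13.9% of all tested genes were higher and 13.1% lower. In either direction, 7.89% of the members were past 1.5-fold in TRP1high and 10.5% in TRP1low, against 19.6% and 27.0% of all tested genes, and 14.0% and 21.9% of those averaging 100 or more normalized counts. Past 2-fold, 1 member (Orc1) was apart in TRP1high and 0 in TRP1low, against 9.87% and 15.1% of all tested genes in either direction. Among genes averaging 100 or more normalized counts, these shares were 4.91% and 8.94%.

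**Figure D2:**
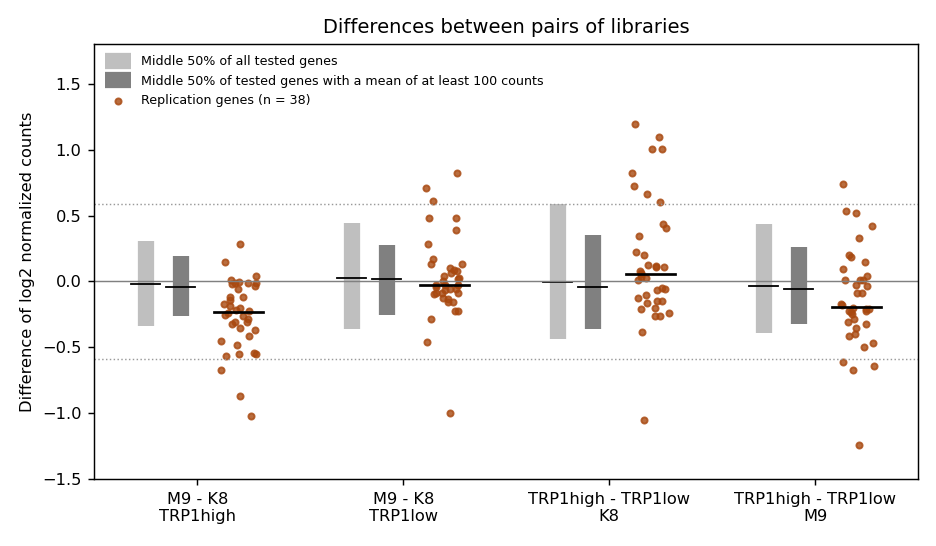
Differences of log2 normalized counts (vertical axis) in the 4 comparisons, with 1 point per replication gene and a black line at their median. Grey bars span the middle 50% of all tested genes and of those averaging 100 or more normalized counts, dotted lines mark 1.5-fold, and the replication genes sit lowest against the bars for M9 against K8 in TRP1high (median -0.23).

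Across the receptors, 13 members had both K8 libraries above both M9 libraries (34.2%, against 15.7% of all tested genes), and Gins1 was the 1 member with both M9 libraries above both K8 libraries (against 16.8%). The 13 were Mcm2, Mcm4, Mcm5 and Mcm6 of the helicase, the loader Cdc6, the primase partner Pola1, the clamp loader subunit Rfc3, the flap nuclease Fen1, Gins3, the ribonucleotide reductase subunit Rrm2, the histone mRNA binding protein Slbp and the cyclins Ccne1 and Ccne2. In an additive limma fit of receptor and peptide over all 16102 genes, 0 genes passed a Benjamini-Hochberg adjusted p of 0.05 for the peptide, and 1342 genes (8.33%) and 0 members had an unadjusted p under 0.05. That fit has 1 residual degree of freedom, and its error is the disagreement of the 2 receptors and not the spread between cultures. The members' smallest adjusted p was 0.602, for Hells (-0.77, SE 0.24), followed by 0.617 for Ccne2 (-0.66, SE 0.23), both lower with M9 in both receptors.

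Of all members, Orc1 had the widest peptide difference in TRP1high, and Hells in TRP1low. Orc1, the largest subunit of the origin recognition complex (chromosome 4, 108579423 to 108614833, GRCm38), stood at 11.44 with K8 and 10.42 with M9 in TRP1high, and at 10.84 with K8 and 11.66 with M9 in TRP1low. The order of the peptides was opposite in the 2 receptors. With M9, Orc1 was 2.02-fold lower in TRP1high (95% counting interval 1.90 to 2.16) and 1.77-fold higher in TRP1low (1.66 to 1.89), on 1338 to 3090 estimated reads. These intervals cover counting error only. The loaders Cdc6 and Cdt1 stood between 11.79 and 12.29 in all libraries, with differences of -0.31 and -0.35 in TRP1high and of -0.03 and -0.06 in TRP1low. An antisense gene model, Gm12743, overlaps an exon of Orc1, and no source used here says whether reads were counted by strand, so reads of such pairs cannot be told apart.

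The 6 genes of the MCM helicase were all lower with M9 in TRP1high, with differences from -0.55 (Mcm2) to -0.03 (Mcm3), and 5 of 6 were lower in TRP1low, where Mcm3 was 0.28 higher. None of the 6 was 1.5-fold apart in any of the 4 comparisons. Mcm2, which also binds histones H3 and H4, stood at 13.90 (K8) and 13.35 (M9) in TRP1high and 13.97 (K8) and 13.85 (M9) in TRP1low, an order kept for the 4 values of each gene below. Its TRP1high library with M9 was apart from the other 3. Mcm3 showed another order, at 14.79, 14.76, 14.38 and 14.67, with the TRP1low library with K8 lowest.

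Of the helicase activators, the 4 GINS genes and Cdc45 had differences from -0.41 (Gins3) to 0.39 (Gins1) over the 4 comparisons. Gins1 stood at 10.23, 10.52, 10.36 and 10.75, higher with M9 in both receptors (0.29 and 0.39). Mcm10, which acts when the loaded helicase is switched on, stood at 12.04, 11.59, 11.32 and 11.41. It was highest in TRP1high with K8, 1.65-fold above TRP1low with K8 (1.57 to 1.75).

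The catalytic subunits of polymerases delta and epsilon were lowest in TRP1low with K8. Pold1, of the lagging-strand polymerase delta, stood at 12.75, 12.89, 12.09 and 12.69, and Pole, of the leading-strand polymerase epsilon, at 12.35, 12.34, 11.53 and 12.01. With M9, Pold1 was 1.52-fold higher in TRP1low (1.46 to 1.59), and Pole was 0.48 higher on the log2 scale. In TRP1high, the corresponding differences were 0.15 and -0.01. The genes of polymerase alpha and primase had another order: Pola1 stood at 12.39, 11.91, 12.38 and 12.32, and Prim1, the catalytic primase subunit, at 11.95, 11.71, 12.33 and 12.35.

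Pcna stood at 14.97, 14.83, 15.13 and 15.04, and the clamp loader subunits Rfc3 and Rfc4 had differences from -0.32 to 0.23 over the 4 comparisons. The processed pseudogene Pcna-ps2 was at 6.70 and 6.32 in TRP1high and at 12.43 and 12.57 in TRP1low. Whether reads were split between Pcna and this pseudogene was not tested, so the level of Pcna is uncertain. Fen1 stood at 12.93, 12.87, 12.90 and 12.86, the steadiest member. Lig1, the ligase that seals Okazaki fragments (chromosome 7, 13277283 to 13311433), stood at 13.26, 13.30, 12.17 and 12.88. Its 2 TRP1high libraries were level, and within TRP1low the M9 library was 1.64-fold above the K8 library (1.57 to 1.71). Zswim9 overlaps an exon of Lig1 on the opposite strand and stood at 8.74, 5.60, 4.94 and 5.67.

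Genes of nucleotide supply differed little. Rrm1, Rrm2, Tk1 and Dut had peptide differences from -0.30 to -0.01 in TRP1high and from -0.16 to 0.10 in TRP1low, and receptor differences from -0.35 to 0.12.

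**Figure D3:**
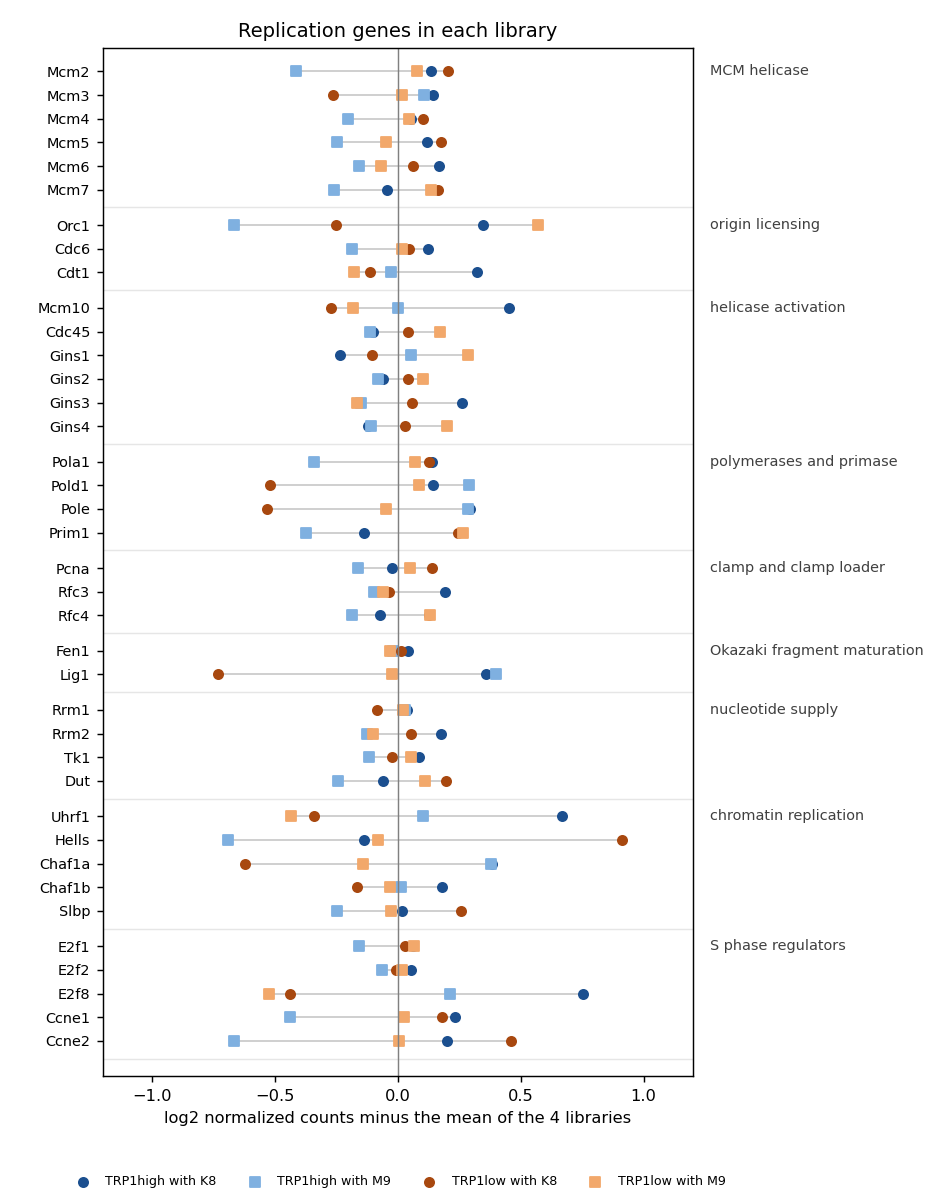
Each of the 38 replication genes (rows, grouped by role) in the 4 libraries, as log2 normalized counts minus the gene's mean over the libraries (horizontal axis), with 1 point per library. The light blue squares (TRP1high with M9) are the lowest point for 23 of 38 genes, and Hells has the widest range at 1.60.

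The chromatin genes differed from each other in direction. Hells, a remodeller needed for DNA methylation (chromosome 19, 38930915 to 38971051), stood at 12.95, 12.39, 14.00 and 13.00. TRP1low with K8 was above the other 3 libraries, and M9 was lower in both receptors, with a difference of -0.55 in TRP1high and a 1.99-fold one in TRP1low (1.94 to 2.05). Uhrf1, which brings the maintenance DNA methyltransferase to newly copied DNA (chromosome 17, 56303321 to 56323486), stood at 14.14, 13.58, 13.13 and 13.04, with both TRP1high libraries above both TRP1low libraries. Chaf1a, the large subunit of the histone chaperone CAF-1, stood at 11.97, 11.97, 10.97 and 11.45, and its partner Chaf1b ranged from 11.12 to 11.47. Ubxn6 shares exonic bases with Chaf1a on the opposite strand and stood at 10.16, 10.46, 10.23 and 10.46.

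Among the S phase regulators, the cyclins of the E type were lowest in TRP1high with M9. Ccne1 stood at 12.43, 11.76, 12.38 and 12.22, and was 1.59-fold lower with M9 in TRP1high (1.53 to 1.66). Ccne2 stood at 11.53, 10.66, 11.79 and 11.34, and was 1.82-fold lower (1.72 to 1.94). Ints8, which overlaps Ccne2 on the opposite strand, was higher with M9, by 0.36 in TRP1high and 0.32 in TRP1low. E2f8, an atypical E2F that represses E2F targets (chromosome 7, 48866429 to 48881596), stood at 10.93, 10.39, 9.74 and 9.65, with TRP1high above TRP1low for both peptides. The activators E2f1 and E2f2 had differences from -0.22 to 0.06.

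**Figure D4:**
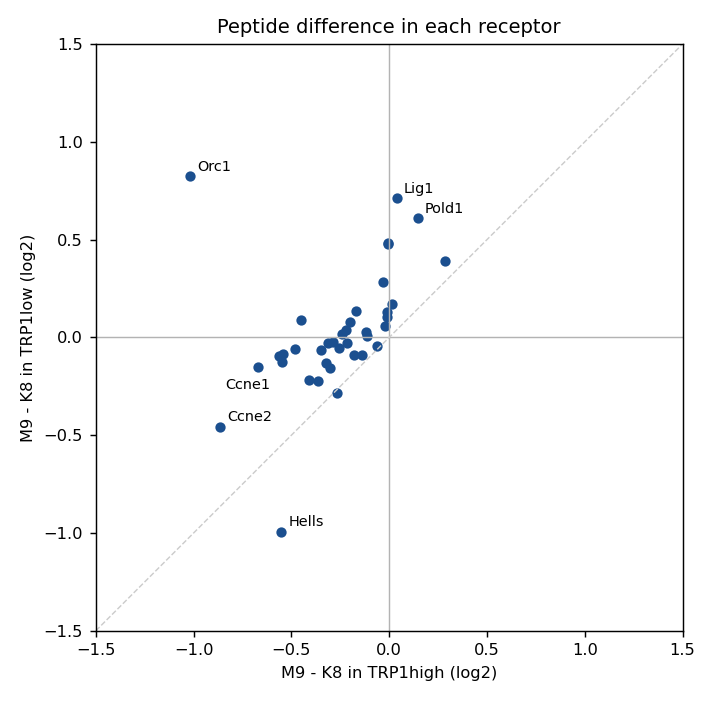
M9 minus K8 difference of each of the 38 replication genes in TRP1high (horizontal axis) and in TRP1low (vertical axis), on the log2 scale, with members past 1.5-fold named and the dashed line where both are equal. Orc1 lies alone in the upper left at -1.02 and 0.82, and 36 of 38 genes lie above the dashed line.

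The peptide difference was lower in TRP1high than in TRP1low for 36 of 38 members, all but Hells and Slbp, where 54.5% of all tested genes were lower. The median of this difference between the differences was -0.26, against -0.06 over all genes, and 2 members (Orc1 and Lig1) were past 1.5-fold, both below 0, where 16.5% of all tested genes were and 14.6% were past it above 0. Past 2-fold was 1 member (Orc1), against 18.7% of all tested genes and 9.7% of those averaging 100 or more normalized counts. With 4 libraries, this interaction cannot be tested. The M9 library of TRP1high was the lowest of the 4 libraries for 23 members (60.5%, against 29.3% of all tested genes), and the K8 library of TRP1high was the highest for 19 (50%, against 22.3%). All comparisons made with 1 of these libraries share it.

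The comparison of the receptors asks how TRP1high cells differed from TRP1low cells under the same peptide. With K8, 8 members were at least 1.5-fold higher in TRP1high (Orc1, Mcm10, Pold1, Pole, Lig1, Uhrf1, Chaf1a and E2f8) and Hells was lower. Of all tested genes, 17.5% were higher and 15.8% lower by that much, so the members' share of higher genes (21.1%) was near the background. Folds with K8 were 2.28 for E2f8 (2.09 to 2.51), 2.13 for Lig1 (2.05 to 2.22), 2.01 for Uhrf1 (1.95 to 2.07) and 1.77 for Pole (1.68 to 1.86), while Hells was 2.07-fold lower (2.01 to 2.13). For Chaf1a the interval of the fold was 1.89 to 2.13. Past 2-fold were 5 members (13.2%), against 18.9% of all tested genes and 13.8% of those averaging 100 or more normalized counts. With M9, E2f8 was 1.67-fold higher in TRP1high (1.52 to 1.82), where 14.1% of all tested genes were at least 1.5-fold higher. Orc1 (2.36-fold, 2.22 to 2.52), Ccne2 (1.59-fold), Prim1 (1.56-fold) and Hells (1.52-fold) were lower, where 11.8% were. Orc1 was the 1 member past 2-fold, against 12.9% of all tested genes and 7.98% of those averaging 100 or more normalized counts. With libraries brought to equal medians, 2 members were higher and 2 lower by at least 1.5-fold.

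**Figure D5:**
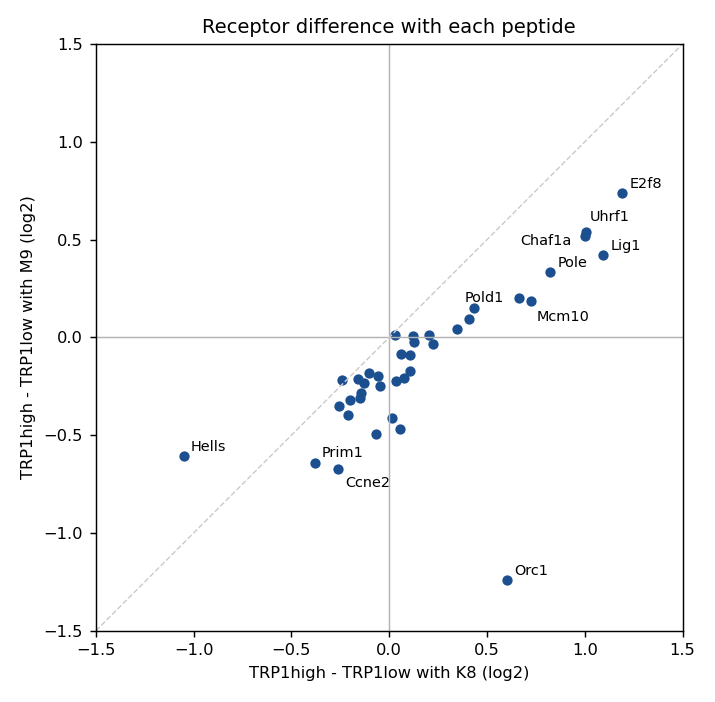
TRP1high minus TRP1low difference of each of the 38 replication genes with K8 (horizontal axis) and with M9 (vertical axis), on the log2 scale, with members past 1.5-fold named and the dashed line where both are equal. E2f8, Uhrf1, Chaf1a and Lig1 lie to the upper right, Hells to the lower left, and Orc1 in the lower right at 0.60 and -1.24.

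Members with both libraries of 1 receptor above both of the other had shares near those of all tested genes. Both TRP1high libraries were above both TRP1low libraries for 11 members (28.9%, against 22.7% of all tested genes), and the reverse held for 9 (23.7%, against 25.1%). The first 11 were Mcm3, Cdt1, Mcm10, Pold1, Pole, Lig1, Rrm1, Uhrf1, Chaf1a, Chaf1b and E2f8, and the other 9 were Mcm7, Cdc45, Gins2, Gins4, Prim1, Pcna, Rfc4, Dut and Hells. Over the 38 members, the differences with K8 and with M9, which come from separate libraries, had a Pearson correlation of 0.71. Over the 10047 genes averaging 100 or more normalized counts, it was 0.68. The Spearman correlations were further apart, at 0.81 for the members and 0.58 for the 10047 genes. In the additive limma fit, 0 genes passed a Benjamini-Hochberg adjusted p of 0.05 for the receptor (260 with a trend in eBayes, 0 of them members), and 2044 genes (12.7%) had an unadjusted p under 0.05, among them 1 member, E2f8 (0.96, SE 0.24, adjusted p = 0.386 in limma). Transcript GC content moved with the receptor difference: its Spearman correlation with the difference with K8 was 0.43 over the 38 members and 0.31 over the 9505 of those genes with a known GC content. With each library's trend with GC content removed, the difference with K8 was 0.33 for Pold1 and -0.70 for Hells, and 7 members rather than 8 were at least 1.5-fold higher.

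The other genes of replication and of entry into S phase were read from a list of 93, of which 92 were measured (not Cdkn2b). With M9 in TRP1high, 68 of the 92 were lower and 24 higher, with a median of -0.17, where 53.3% of all tested genes were lower and their median was -0.02. In TRP1low 49 were lower and 43 higher, with a median of -0.03, where 47.0% of all tested genes were lower and their median was 0.02. In any of the 4 comparisons, 9 of them (9.78%) were at least 2-fold apart, against 30.9% of all tested genes. In TRP1high against TRP1low with K8, 5 were 2-fold higher and 0 lower, where 10.6% of all tested genes were higher and 8.35% lower. Rfc1, the large subunit of the clamp loader, stood at 12.06, 11.97, 9.45 and 10.69, lowest in TRP1low with K8, where its partners Rfc3 and Rfc4 were near level. Dnmt1, the maintenance DNA methyltransferase, stood at 13.55, 13.30, 11.81 and 12.45, in the same order as Rfc1. Clspn, a checkpoint mediator at the fork, stood at 11.34, 10.91, 10.24 and 10.01, and Samhd1, which breaks down deoxynucleotides, at 13.69, 13.93, 12.64 and 13.15. These 4 had both TRP1high libraries above both TRP1low libraries.

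E2f7, the closest relative of E2f8, stood at 8.39, 7.86, 8.21 and 6.67, lowest in TRP1low with M9. Tk2, the mitochondrial thymidine kinase, stood at 9.44, 8.38, 9.52 and 8.79, lower with M9 in both receptors. The remaining 3, Ccnd1, Cdkn1c and Cdkn2a, held few reads in all libraries: their highest values were 4.35, 4.14 and 4.24, and Cdkn2a was at 0 in TRP1low with K8.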

How the data were processed

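Gene expression was measured in 4 libraries of sorted mouse T cells, grouped by sample title, with 1 library per group. The authors deposited log2 normalized counts per gene symbol, per the file headers. Since genes without reads are listed at 0, 1 was taken to have been added. The submitters' processing notes name Salmon 0.8.2, DESeq2 1.20.0 and mm10, without settings. The most frequent low value gave the worth of 1 read and so the estimated reads. Only 56.2% to 56.4% of values up to 50 lay within 0.01 of a whole read, so no count test was run.

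Differences were taken on the deposited scale. A gene counted as past 1.5-fold only if either library of the pair reached 10 normalized counts. The 16102 genes averaging 1 or more were tested in limma 3.58.1 (R 4.3.3). A run on simulated additive data, with equal spread for every gene, checked the code and not how the fit suits these data. Counting intervals are 95% exact binomial intervals of estimated reads rounded to whole numbers. Since many values were not whole reads, these intervals are approximate. Positions, lengths and GC content come from GENCODE M21 (GRCm38) and promoters from RefSeq (GRCm38.p6). Of the 38 promoter windows, 32 had bases after the start that were found in a GENCODE transcript and 0 matched only in reverse. Values were printed for members at least 1.5-fold apart in any comparison and for those highest and lowest per kb, and for some others chosen after their values were seen. Other listed genes were named when at least 2-fold apart. The members and lists were chosen with earlier results of these data known. Alternatives were another added count, 2 other scalings, other filters, a 2-fold limit, eBayes with a trend and, chosen after seeing the data, removal of GC trends in 20 bins.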

Additional observations from a re-analysis of the deposited data

Results flagged for a closer look

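Orc1 differed between the receptors: the peptide difference was -1.02 in TRP1high and 0.82 in TRP1low, each past 1.5-fold, a difference between them of -1.84. With 1 library per group, this difference was not tested.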

How the results depend on the processing

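No paired analysis was possible because each group held 1 library, so no replicate number could serve as a block; the additive limma fit compares the peptides within each receptor. No alternative reversed a median or a member past 1.5-fold. Counts of members moved with the limit: at least 2-fold, 1 was apart for M9 against K8 in TRP1high, 0 in TRP1low, 5 for TRP1high against TRP1low with K8, 1 with M9, and 1 for the difference of the peptide differences. With the GC trend removed, 2 rather than 5 members were past 1.5-fold for TRP1high against TRP1low with M9: Prim1 (-0.43), Hells (-0.30) and Ccne2 (-0.36) no longer were. For the peptide difference in TRP1low, Pold1 was no longer past 1.5-fold with the GC trend removed (0.40) or with equal totals of the libraries (0.546). For TRP1high against TRP1low with M9, Hells also fell short of 1.5-fold with equal totals (-0.5664) and with equal medians (-0.5445). Prim1 did so with equal medians (-0.5759). In limma, 0 members passed an adjusted p of 0.05 for peptide or receptor in any setting. With a trend in eBayes, 3 members had an unadjusted p under 0.05 for the peptide and 12 for the receptor, and their smallest adjusted p in limma were 0.181 and 0.0623, while 5 and 260 genes were called. With genes averaging 100 or more, 0 and 40 genes were called and the members' smallest were 0.41 and 0.178; with 10 added to the counts, 0 and 32 genes were called. Counting error is small at these depths (Gins3, the lowest member per kb, stood at 9.16 to 9.58), and the spread between cultures is unknown.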

Other observations

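The processed pseudogene Pcna-ps2 was far apart between the receptors with both peptides: it was lower in TRP1high by log2 differences of -5.73 with K8 and -6.24 with M9, while Pcna itself differed by -0.16 and -0.21. The cause was not tested.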
